A study of Mus musculus with 12 samples.

Results

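The 34 genes described here carry glucose into the cell, split it to pyruvate and lactate, regulate those steps, import pyruvate into mitochondria and run the pentose phosphate branch. They were picked by gene symbol out of the 24421 rows of 1 count table, with earlier results of these data known. All 34 are among the 12461 genes that passed the filter on low counts. The libraries are bulk RNA-seq of mouse regulatory T cells (Tregs), CD4 T cells that express Foxp3 and restrain immune responses. There were 4 groups of 3 libraries: KO cTreg, WT cTreg, KO eTreg and WT eTreg.

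In KO mice tamoxifen deletes Il2ra, the gene of CD25, in Foxp3-expressing cells. All 4 groups carried the R26tomato+/+ and Foxp3eGFPERT2+/+ alleles, and the groups differed in the CD25 allele, written CD25FL/FL or CD25WT/WT. KO and WT mice alike received tamoxifen at 2 mg/kg by intraperitoneal injection for 5 days and were harvested 10 days later, and each library pooled spleen and lymph node cells of 2 to 3 mice. Cells were sorted on CD4, GFP and tdTomato, and were split by a further surface marker into gates of central Tregs (cTreg) and effector Tregs (eTreg), and KO cells were sorted as CD25-low in addition. The genotype field of the labels gives CD25FL/FL to the libraries titled WT and CD25WT/WT to those titled KO, and the grouping used here is that of the titles. Because each library pools mice, the p-values measure the spread between these pools, and in bulk RNA a smaller share of cells of a type cannot be told apart from less RNA per cell.

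Glycolysis phosphorylates glucose, splits the sugar and recovers ATP on the way to pyruvate, which lactate dehydrogenase reduces to lactate or the mitochondrial pyruvate carrier delivers to the tricarboxylic acid cycle. The pentose phosphate pathway branches off at glucose 6-phosphate and yields NADPH and ribose. In T cells, activation and the transcription factors Myc and HIF-1alpha raise glycolytic gene expression, whereas Foxp3 is known to restrain it. Interleukin-2, which binds the receptor that CD25 completes, signals through STAT5 and other pathways.

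Il2ra, the deleted gene, had 112 to 132 CPM in the 6 KO libraries and 464 to 579.8 CPM in the 6 WT libraries (CPM, counts scaled by TMM to a common library size), although the CD25-low sort itself selects for low Il2ra. Total counts were 14567313 to 19121577 per library, and the members had 39 to 12647 counts each. Foxp3 averaged 227 CPM in KO cTreg, 393 CPM in WT cTreg, 176 CPM in KO eTreg and 244 CPM in WT eTreg, and the summed Treg markers reached 2965 to 4506 CPM against at most 16.9 CPM for any of the 5 lists of other cells (B, myeloid, cytotoxic, erythroid, platelet). The ribosomal precursor Rn45s took 18.1% to 18.5% of the counts in KO cTreg, 22.4% to 24.4% in WT cTreg, 3.19% to 3.32% in KO eTreg and 4.11% to 4.34% in WT eTreg, and its part in the results was not tested beyond the alternative scaling without it.

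Per kilobase of the principal transcript, the genes spanned 1.24 to 242.0 CPM per kb in KO cTreg and 1.05 to 200.7 CPM per kb in WT cTreg. In KO cTreg, Ldha, which makes lactate from pyruvate, stood highest at 242.0 ± 18.7 CPM per kb (SD, n = 3), followed by Pkm, pyruvate kinase, at 221.4 ± 13.1 CPM per kb and Aldoa, the main aldolase, at 193.4 ± 13.3 CPM per kb. In WT cTreg, Ldha at 200.7 ± 2.21 and Eno1, the main enolase, at 197.2 ± 13.1 CPM per kb lay within their spread of each other, ahead of Pkm at 174.8 ± 3.91 CPM per kb. In KO eTreg the order was Pkm at 147.9 ± 13.1, Aldoa at 142.1 ± 7.12, Hif1a at 136.0 ± 3.99 and Ldha at 134.3 ± 16.8 CPM per kb, which overlap in their spread. WT eTreg had Pkm at 133.3 ± 7.93, Ldha at 128.0 ± 12.1 and Aldoa at 126.0 ± 1.71 CPM per kb, with Hif1a lower at 98.2 ± 4.38. Hif1a, which encodes the oxygen-regulated subunit of HIF-1, thus had rank 9 of 34 in KO cTreg, rank 11 in WT cTreg, rank 3 in KO eTreg and rank 4 in WT eTreg. At the other end stood Hk2, an inducible hexokinase, with 1.24 CPM per kb in KO cTreg and 1.05 in WT cTreg, and Slc16a3, the lactate exporter MCT4, with 1.35 in KO eTreg and 1.15 in WT eTreg. Levels of genes with near-identical copies are uncertain, since reads may be shared. Such copies match 56.6% of the coding sequence of Ldha, 65.5% of that of Pkm, 85.6% of that of Eno1, 68.8% of that of Pgk1 and 76.8% of that of Ldhb. For Gpi1 the share is 55.3% and for Mpc1 59.0%. The ranks, ratios and differences of these genes carry that limit. Gapdh is not read as a level here: 81 other genes, 77 of them pseudogenes, match parts of its coding sequence at 95% identity or more, and it held 9.67 CPM per kb in KO cTreg and 7.71 in WT cTreg.

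**Figure D1:**
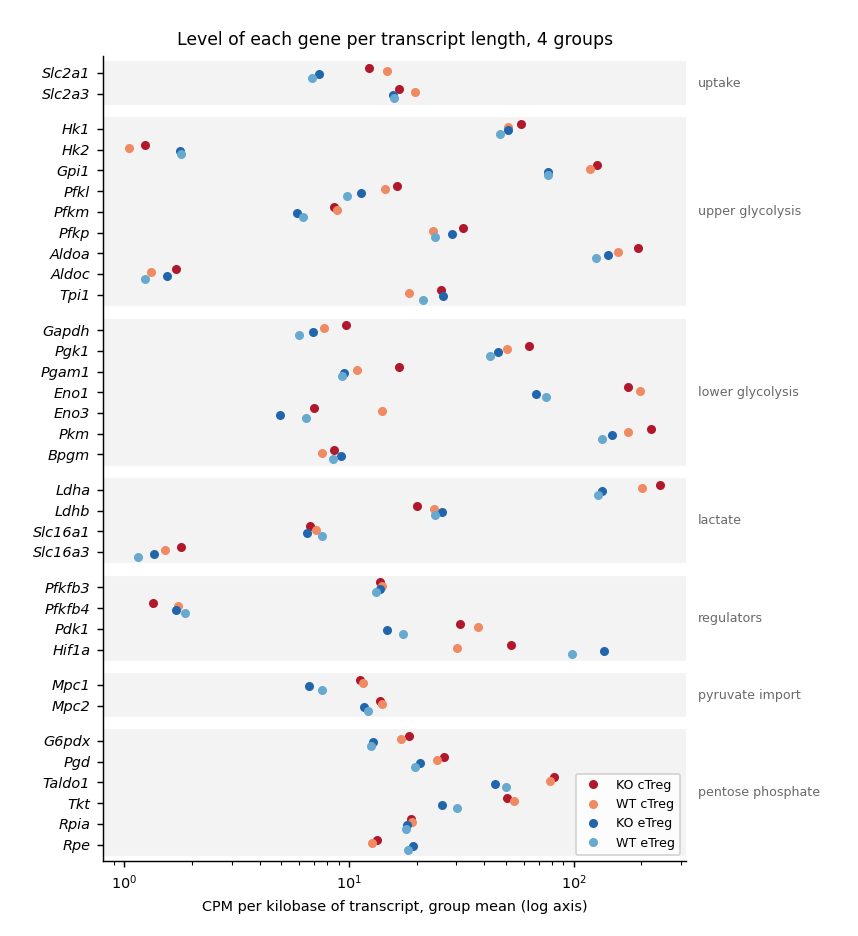
Mean level of each of the 34 genes in CPM per kilobase of transcript on a log axis, 1 point per group, with the genes ordered by step. Ldha, Pkm, Aldoa and Eno1 lie furthest right in cTreg, Hif1a joins them in eTreg (136.0 in KO and 98.2 in WT), and Hk2, Aldoc, Slc16a3 and Pfkfb4 lie near 1 to 2 CPM per kb.

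Setting KO against WT cTreg compares cells with and without CD25 deletion in the central gate. Because KO cells were in addition sorted as CD25-low, the deletion and that sort cannot be told apart in any KO against WT comparison. Of upper glycolysis 5 of 9 genes rose and of lower glycolysis 3 of 7, as did Ldha and Hif1a, whereas both glucose transporters, the muscle-type enolase gene Eno3, Ldhb and the pyruvate dehydrogenase kinase gene Pdk1 fell, and no gene of the pentose phosphate branch was called. By the quasi-likelihood test of edgeR, with Benjamini-Hochberg adjustment over all 12461 genes, 15 of the 34 were called at an adjusted p under 0.05, 10 higher and 5 lower, which is 44.1% against a background of 27.5% of all genes tested (14.8% higher and 12.6% lower). Their median log2 fold change was 0.11, against 0 for all genes tested. The groups did not overlap for 15 genes (11 higher, 4 lower), against a background of 40.4% of genes. The 19 genes without a call lay between -0.37 (Pfkfb4) and 0.37 (Aldoc) on the log2 scale. The count fell to 9 without WT cTreg replicate 1, without WT cTreg replicate 3 or without KO cTreg replicate 2, and 7 genes (Pfkp, Aldoa, Pgam1, Eno3, Pkm, Pdk1 and Hif1a) kept their call under all 22 alternatives.

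In eTreg fewer genes passed the threshold in the same comparison of KO with WT. Hif1a and Pfkp rose and Pdk1 fell, which makes 3 of 34 or 8.82%, against a background of 6.65% (3.25% higher and 3.4% lower), so the share in the fit without a replicate block lies near that of all genes tested. All 3 were also called in cTreg with the same sign, while the other 12 genes called in cTreg were not called in eTreg. The median log2 fold change was 0.06, against 0.01 for all genes tested, and 9 genes did not overlap between the groups (6 higher, 3 lower; background 25.2%). A replicate block was also added to a fit of the 6 eTreg libraries, with same-numbered libraries taken as pairs from these same counts. In that fit 10 genes were called, 6 higher and 4 lower, which is 29.4% against 14% of all genes (7.54% higher and 6.48% lower). The 7 added were Pfkl (0.19, adjusted p = 0.0447), Aldoa (0.16, adjusted p = 0.0137), Tpi1 (0.28, adjusted p = 0.00823), Pkm (0.14, adjusted p = 0.0192), Eno1 (-0.16, adjusted p = 0.0158), Slc16a1 (-0.24, adjusted p = 0.041) and Tkt (-0.23, adjusted p = 0.00279) by edgeR. Without WT eTreg replicate 3 or without KO eTreg replicate 2, Hif1a alone was called. Without WT eTreg replicate 2, Hif1a and Pfkp were called.

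**Figure D2:**
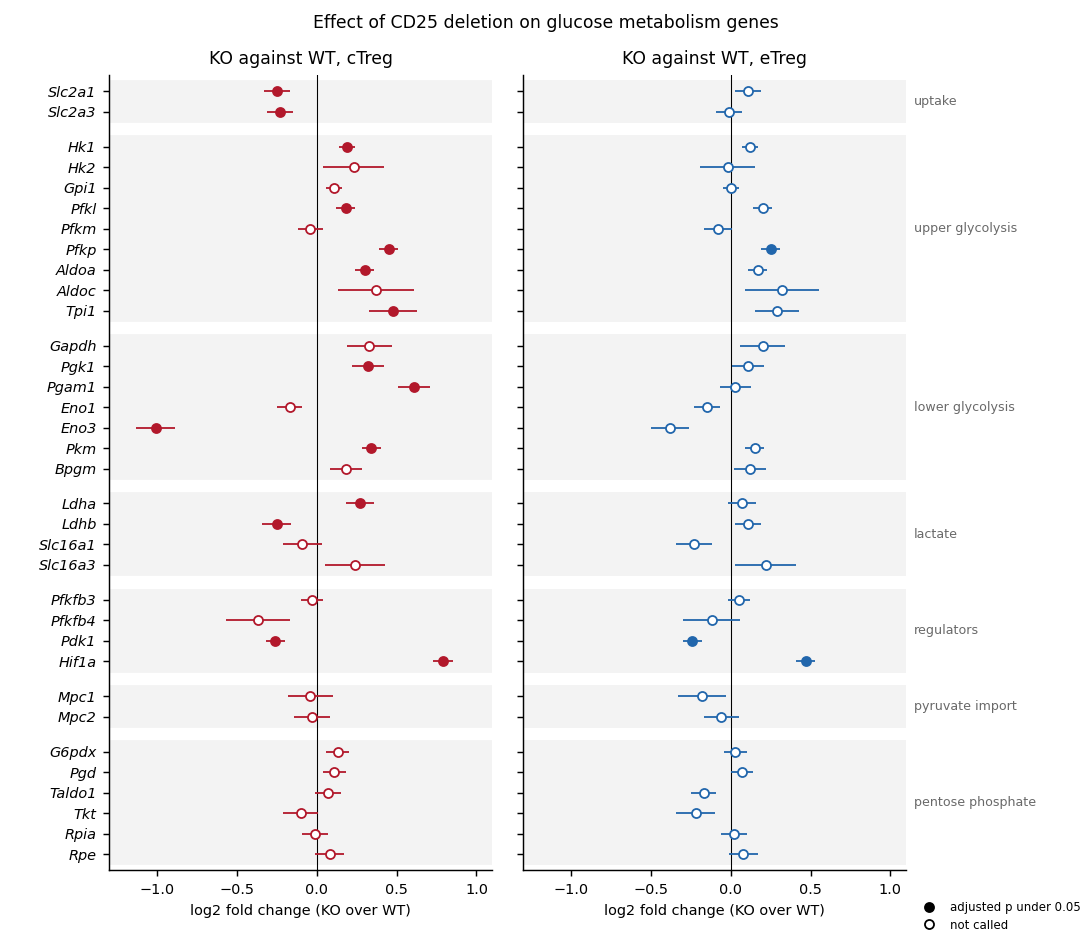
log2 fold change of KO over WT with its SE (n = 3 per group) for the 34 genes, in cTreg on the left and eTreg on the right; filled points passed an adjusted p of 0.05. In cTreg 10 filled points lie right of 0 and 5 left of it, with Eno3 furthest left at -1.01 and Hif1a furthest right at 0.79; in eTreg Hif1a, Pfkp and Pdk1 are filled.

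Glucose uptake was the step at which both genes fell in KO cTreg. Slc2a1 encodes GLUT1, the basal glucose transporter of activated T cells, and had 38.2, 42.7 and 39.6 CPM in KO cTreg replicates 1, 2 and 3, against 49.8, 42.3 and 51.6 CPM in WT cTreg. The highest KO library lay above the lowest WT library, and the log2 fold change was -0.25 ± 0.08 (SE, n = 3 per group, adjusted p = 0.0212). Slc2a3, the high-affinity transporter GLUT3, had 68.2, 59.9 and 71.1 CPM in KO cTreg and 75.3, 85.7 and 72.3 CPM in WT cTreg, with no overlap and a log2 fold change of -0.23 ± 0.08 (adjusted p = 0.0386). Each call was lost in 5 of 22 alternatives, with a highest adjusted p of 0.114 for Slc2a1 and 0.187 for Slc2a3. Slc2a1 lost it on leaving out replicate 1 or 3 of either cTreg group, and Slc2a3 on leaving out replicate 1 or 2 of either. In eTreg, Slc2a1 had 24.6, 24.1 and 23.2 CPM in KO and 21.2, 22.6 and 22.8 CPM in WT, and Slc2a3 had 58.3, 64.4 and 64.3 CPM in KO and 64.2, 57.8 and 66.4 CPM in WT. Neither passed the test there (0.11 ± 0.08, adjusted p = 0.507 for Slc2a1; -0.01, adjusted p = 0.971 for Slc2a3), and the difference between the KO effects in the 2 gates also missed the threshold for Slc2a1 (0.36 ± 0.11, adjusted p = 0.0855).

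Among the 9 genes of upper glycolysis, from hexokinase to triose phosphate, 5 rose in KO cTreg and none fell. Pfkp, the platelet-type isoform of phosphofructokinase, which catalyses the committed step, had 133, 129.7 and 139 CPM in KO cTreg and 102, 96.4 and 95.8 CPM in WT cTreg. Every KO library was above every WT library, 1.36-fold on average (0.45 ± 0.06, adjusted p = 1.78e-05). In eTreg it had 115, 128 and 114 CPM in KO and 103, 102 and 95.6 CPM in WT, again without overlap (0.25 ± 0.06, adjusted p = 0.0117). The call in eTreg was lost without WT eTreg replicate 3 (adjusted p = 0.0682) and without KO eTreg replicate 2 (adjusted p = 0.055). Pfkp shares exon sequence with Pitrm1 on the opposite strand, and Pitrm1 fell in both gates (-0.31, adjusted p = 0.00355 in cTreg; -0.25, adjusted p = 0.0369 in eTreg).

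Aldoa, which splits fructose 1,6-bisphosphate, had 272, 313 and 291 CPM in KO cTreg and 256, 235 and 220.3 CPM in WT cTreg, a log2 fold change of 0.30 ± 0.06 (adjusted p = 0.00147) with separate groups. Tpi1, triose phosphate isomerase, had 34.4, 46.6 and 42.6 CPM in KO cTreg and 29.4, 29.0 and 30.3 CPM in WT cTreg. Its WT libraries were close together and its KO libraries spread widely above them (0.48 ± 0.15, adjusted p = 0.0343). Hk1, the constitutive hexokinase, had 218, 232 and 225 CPM in KO cTreg and 204, 184 and 203 CPM in WT cTreg (0.19 ± 0.05, adjusted p = 0.00786). Pfkl, the liver-type phosphofructokinase, had 60.2, 58.7 and 64.8 CPM in KO cTreg and 53.5, 55.0 and 54.0 CPM in WT cTreg (0.18 ± 0.06, adjusted p = 0.0419). Neither Hk1 nor Pfkl overlapped between the groups, but the call of Pfkl was lost in 12 of 22 alternatives (highest adjusted p = 0.185), including without any cTreg library. That of Tpi1 was lost in 6 (highest adjusted p = 0.128), including without any WT cTreg library and without KO cTreg replicate 2 or 3. Gpi1, Pfkm, Hk2 and Aldoc were not called, with log2 fold changes of 0.11, -0.04, 0.23 and 0.37.

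In eTreg Aldoa, Pfkl, Hk1 and Tpi1 had positive log2 fold changes that did not pass the test without a block. Aldoa had 208, 227 and 209 CPM in KO eTreg and 193, 189 and 189 CPM in WT eTreg (0.17 ± 0.06, adjusted p = 0.11), and Pfkl had 43.3, 43.1 and 40.2 CPM in KO eTreg and 38.9, 34.9 and 36.3 CPM in WT eTreg (0.20 ± 0.06, adjusted p = 0.0606). For both genes the groups did not overlap. Hk1 had 197, 202 and 189 CPM in KO eTreg and 182, 182 and 178 CPM in WT eTreg (0.12, adjusted p = 0.198). Tpi1 had 38.3, 51.4 and 36.0 CPM in KO eTreg and 34.1, 39.0 and 29.7 CPM in WT eTreg, with replicate 2 the highest in either genotype (0.29, adjusted p = 0.31).

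In lower glycolysis, from glyceraldehyde 3-phosphate to pyruvate, 3 of 7 genes rose in KO cTreg and 1 fell. Pgam1, the phosphoglycerate mutase of most tissues (chr19:41911923-41918660, mm10), had 27.0, 31.2 and 30.4 CPM in KO cTreg and 19.2, 18.7 and 20.1 CPM in WT cTreg. The groups were well apart, and the 1.53-fold difference (0.61 ± 0.10, adjusted p = 0.000267) was second in size to that of Hif1a among the genes that rose. In eTreg the groups overlapped, at 17.1, 18.7 and 14.6 CPM in KO and 15.9, 18.4 and 15.1 CPM in WT (0.03 ± 0.10, adjusted p = 0.929). The KO effect on Pgam1 differed between the gates by -0.58 ± 0.14 on the log2 scale (adjusted p = 0.0306 for the interaction). Of its coding sequence 43.1% is shared with 1 pseudogene.

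Eno3, the enolase isoform best known from muscle (chr11:70657202-70662513, mm10), fell most. It had 12.2, 10.2 and 10.4 CPM in KO cTreg and 22.8, 19.97 and 23.1 CPM in WT cTreg, a log2 fold change of -1.01 ± 0.12 (adjusted p = 6.88e-06), so the KO libraries sat at 0.497 of the WT level with no overlap. In eTreg it had 7.79, 6.77 and 8.59 CPM in KO and 9.81, 10.8 and 9.39 CPM in WT, also without overlap, but this did not pass the test (-0.38 ± 0.12, adjusted p = 0.072). The KO effects in the 2 gates differed by 0.63 ± 0.17 (adjusted p = 0.0441). Eno1, the enolase that carries most of the mRNA, had 323, 369.5 and 371 CPM in KO cTreg and 418, 369 and 412 CPM in WT cTreg and was not called (-0.17, adjusted p = 0.118). The Eno1 row and that of its near-identical copy Eno1b held almost the same counts in each library, so the counts do not tell the genes apart. Whether shared reads were counted in both rows or split between them is not given and was not tested.

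Pkm, whose splice forms include the M2 enzyme of proliferating cells, had 506, 569.5 and 540.1 CPM in KO cTreg and 436, 421 and 418 CPM in WT cTreg (0.34 ± 0.06, adjusted p = 8e-04), and 346, 396 and 337 CPM in KO eTreg and 322, 344 and 306 CPM in WT eTreg. The cTreg groups were separate and the eTreg groups overlapped. Counts per gene do not tell its splice forms apart. Pgk1, phosphoglycerate kinase, had 98.3, 126 and 121 CPM in KO cTreg and 99.6, 88.2 and 89.3 CPM in WT cTreg, where KO replicate 1 lay inside the WT range (0.32 ± 0.10, adjusted p = 0.0398, a call lost in 7 of 22 alternatives, among them without WT cTreg replicate 2 or 3, KO cTreg replicate 2 or 3 or WT eTreg replicate 1). In eTreg Pgk1 had 76.8, 97.0 and 78.2 CPM in KO and 76.3, 83.0 and 73.9 CPM in WT. Gapdh and Bpgm, the mutase that makes 2,3-bisphosphoglycerate, were not called in either gate (0.33 and 0.18 in cTreg).

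At lactate, the isoforms moved in opposite directions in KO cTreg. Ldha, the subunit that favours lactate formation (chr7:46841475-46855627, mm10), had 389, 449 and 444 CPM in KO cTreg and 356, 357 and 350.0 CPM in WT cTreg, with the 3 WT libraries nearly level and every KO library above them (0.27 ± 0.09, adjusted p = 0.0303). Ldhb, the subunit known for the reverse preference, had 24.4, 26.4 and 27.7 CPM in KO cTreg and 33.7, 27.9 and 31.9 CPM in WT cTreg (-0.25 ± 0.09, adjusted p = 0.0408). These are among the weaker calls: that of Ldha was lost without any WT cTreg library and without KO cTreg replicate 2 or 3 (highest adjusted p = 0.113). That of Ldhb was lost in 10 of 22 alternatives (highest adjusted p = 0.165), including without WT cTreg replicate 1 or 3, KO cTreg replicate 1 or 2, WT eTreg replicate 1 or KO eTreg replicate 3. In eTreg, Ldha had 213, 270.4 and 228 CPM in KO and 210.0, 250.4 and 218 CPM in WT, and Ldhb had 35.4, 31.1 and 35.0 CPM in KO and 31.9, 29.4 and 32.9 CPM in WT, with overlapping groups for both. Slc16a1 and Slc16a3, the monocarboxylate transporters MCT1 and MCT4, were not called in either gate, apart from Slc16a1 in eTreg with the replicate block.

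Within a library, the ratio of 2 isoforms is free of the scaling between libraries. The log2 ratio of Ldha to Ldhb per length was 3.59 ± 0.05 in KO cTreg and 3.07 ± 0.15 in WT cTreg (SD, n = 3), a difference of 0.52 with no overlap. In eTreg it was 2.37 ± 0.28 in KO and 2.41 ± 0.21 in WT. The ratio of Pfkp to Pfkl was 0.98 ± 0.03 in KO cTreg and 0.70 ± 0.07 in WT cTreg, and the ratio of Eno1 to Eno3 was 4.65 ± 0.25 in KO cTreg and 3.81 ± 0.03 in WT cTreg. For these 3 ratios in cTreg the exact two-sided permutation p was 0.1, the smallest that 3 against 3 libraries can give. The ratio of Slc2a1 to Slc2a3 was -0.44 ± 0.20 in KO cTreg and -0.42 ± 0.28 in WT cTreg (exact permutation p = 0.9). In eTreg the ratio of Slc16a1 to Slc16a3 was 2.27 ± 0.11 in KO and 2.73 ± 0.18 in WT (exact permutation p = 0.1). These are 6 of the 14 ratio comparisons between KO and WT, 7 pairs in each gate.

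Among the 4 regulators, Hif1a rose and Pdk1 fell in both gates. Hif1a (chr12:73901375-73947530, mm10) had 243, 259.7 and 240.2 CPM in KO cTreg and 154, 148 and 128 CPM in WT cTreg, a 1.73-fold difference (0.79 ± 0.06, adjusted p = 1.85e-07). It had 634, 664 and 629 CPM in KO eTreg and 482, 469 and 441 CPM in WT eTreg, a 1.38-fold difference (0.47 ± 0.06, adjusted p = 0.000204). No KO library overlapped a WT library in either gate, and the lowest WT eTreg library was above the highest KO cTreg library. On the log2 scale the KO effect was smaller in eTreg by 0.32 (-0.32 ± 0.09, adjusted p = 0.0498). Hif1a mRNA is only part of HIF-1alpha regulation, since the protein is degraded when oxygen is present, and protein was not measured here. The strand setting of the counting is not given, so reads of Hif1a and of its antisense gene Gm15283 cannot be told apart.

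Pdk1, a kinase that inhibits pyruvate dehydrogenase, had 173, 154 and 160.0 CPM in KO cTreg and 198, 195 and 191 CPM in WT cTreg (-0.26 ± 0.06, adjusted p = 0.00283), and 71.1, 74.4 and 83.0 CPM in KO eTreg and 87.7, 88.1 and 93.6 CPM in WT eTreg (-0.24 ± 0.06, adjusted p = 0.0243). In each gate all 3 KO libraries were below all 3 WT libraries. Pdk1 is a textbook target of HIF-1, and it fell where Hif1a mRNA rose. In eTreg its call was lost on leaving out any of WT eTreg replicates 2 and 3 and KO eTreg replicates 1 and 2, with a highest adjusted p of 0.113. Pfkfb3 and Pfkfb4, which set the level of the phosphofructokinase activator fructose 2,6-bisphosphate, were not called in either gate.

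**Figure D3:**
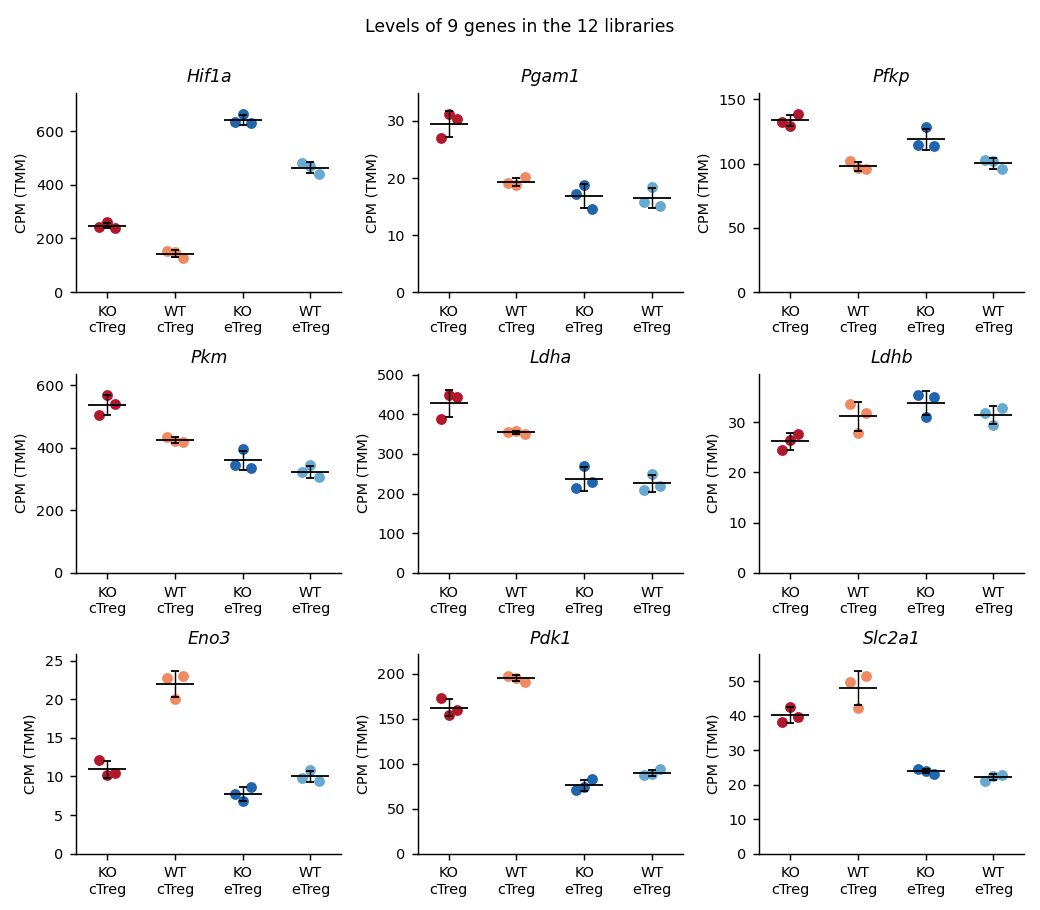
CPM of 9 genes in each of the 12 libraries (points), with the group mean and SD, KO left of WT in each gate. Hif1a is higher in KO in both gates; Pgam1, Pfkp, Pkm and Ldha are highest in KO cTreg; Eno3 stands out in WT cTreg; Pdk1 is lower in KO in both gates.

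Pyruvate import and the pentose phosphate branch did not pass the test for any gene in KO cTreg or KO eTreg, apart from Tkt in eTreg with the replicate block. Mpc1 and Mpc2, the subunits of the mitochondrial pyruvate carrier, had log2 fold changes of -0.04 and -0.03 in cTreg. The 6 pentose phosphate genes lay between -0.10 (Tkt, transketolase) and 0.13 (G6pdx, the NADPH-forming glucose 6-phosphate dehydrogenase) in cTreg, and between -0.22 (Tkt) and 0.08 (Rpe, ribulose phosphate epimerase) in eTreg by the fit without a block. For these 6 genes, 0 were at an unadjusted p under 0.05 in either gate (against 37.8% of all genes in cTreg and 19.4% in eTreg), and limma-voom and DESeq2 called 0. Tkt had 144, 175 and 169.8 CPM in KO cTreg and 197, 152 and 177 CPM in WT cTreg, with wide overlap. Taldo1, transaldolase, had 90.4, 109 and 102 CPM in KO cTreg and 94.6, 93.9 and 99.3 CPM in WT cTreg.

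The difference between the KO effects in the 2 gates was tested directly as an interaction. It was called for Pgam1, Eno3 and Hif1a, 3 of 34 or 8.82%, against a background of 3.8% of all genes tested (0.803% higher and 3% lower), and in each of the 3 the KO effect was nearer 0 in eTreg. All 3 interaction calls have adjusted p-values above 0.03 and depended on single libraries. None of the 34 was called without WT cTreg replicate 3, KO cTreg replicate 2, KO cTreg replicate 3 or KO eTreg replicate 3, and 1 was called on leaving out replicate 1 of WT cTreg, KO eTreg or WT eTreg, or replicate 2 of WT eTreg. DESeq2 called 3 and limma-voom 1. At an unadjusted p under 0.05 there were 6 of 34, or 17.6%, against 16.7% of all genes.

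Sums over cell division genes were set beside sums over the members, which include pentose phosphate, pyruvate import and regulator genes. The 33 members other than Hif1a summed to 3343, 3661 and 3591 CPM in KO cTreg, 3369, 3161 and 3241 CPM in WT cTreg, 2264, 2545 and 2278 CPM in KO eTreg and 2239, 2380.0 and 2220.2 CPM in WT eTreg. KO cTreg replicate 1 lay inside the WT cTreg range, and the eTreg libraries lay below all cTreg libraries. The 25 cell cycle genes summed to 856, 1456 and 1181 CPM in KO cTreg, 806, 635 and 654 CPM in WT cTreg, 488, 925 and 668 CPM in KO eTreg and 479.8, 785 and 553 CPM in WT eTreg. Replicate 2 was the highest for both sums in KO cTreg, KO eTreg and WT eTreg. Between the gates the sums did not run together. KO eTreg replicate 2 lay above every WT cTreg library in the cell cycle sum and below all of them in the member sum. In KO against WT cTreg all 25 cell cycle genes had positive log2 fold changes (median 0.91), 4 of them called (16% against 27.5% of all genes), Mki67 at 1.27 and Ccnb1 at 1.41 among them. In eTreg the median was 0.15 and 0 were called, against 6.65% of all genes. At an unadjusted p under 0.05 the cell cycle list had 13 genes in cTreg (52% against 37.8% of all genes) and 0 in eTreg (against 19.4%). The calls by limma-voom were 13 and 0, and those by DESeq2 10 and 0. The part of cell division in the values of the members was not tested.

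**Figure D4:**
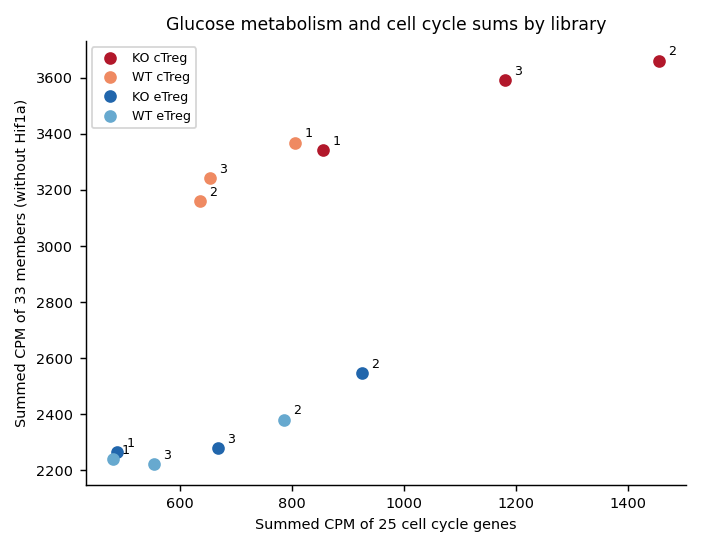
Summed CPM of the 33 members other than Hif1a against the summed CPM of 25 cell cycle genes, 1 point per library, with replicate numbers beside the points. On the vertical axis the cTreg libraries start at 3161 CPM and the eTreg libraries end at 2545 CPM; KO cTreg replicates 2 and 3 are furthest right, at 1456 and 1181 CPM.

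The comparison of eTreg with cTreg, within each genotype, asks how the gates differ. Most enzymes of glycolysis and the pentose phosphate branch had lower CPM in eTreg, while Hif1a was the gene that rose most. In KO, 24 of 34 were called (70.6%; 4 higher and 20 lower), against a background of 72% of all genes (36.1% higher and 35.8% lower), and 25 did not overlap between the gates (background 74.6%). In WT, 21 of 34 were called (61.8%; 3 higher and 18 lower), against a background of 71.5% (35.7% higher and 35.8% lower), and 23 did not overlap (background 74.9%). The shares called are thus no larger than those of all genes, whereas the median log2 fold change was -0.43 in KO and -0.31 in WT, against 0 for all genes in both. In all, 20 genes were called in both genotypes, all 20 with the same sign. The share of all genes called in both was not computed, and most genes were called in each (72% in KO and 71.5% in WT). The genotypes share no library in this comparison, but Hk1, Aldoa, Gapdh and Rpe changed sign in both once transcript length and GC content were modelled.

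Transcript length and GC content bear on this comparison. With an offset for both, the medians of the 34 genes were -0.09 in KO and -0.12 in WT, against -0.06 and -0.07 for all genes, and the split of calls became 6 higher and 16 lower in KO and 6 higher and 15 lower in WT. Over all genes the offset moved the split in KO to 2902 higher and 3993 lower, against 4503 and 4465 without it, and in WT to 2942 and 4095, against 4449 and 4465. Values with this offset are therefore given beside most of the genes below.

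Hif1a was 2.59-fold higher in eTreg than in cTreg in KO (1.37 ± 0.06, adjusted p = 1.55e-11) and 3.24-fold higher in WT (1.70 ± 0.06, adjusted p = 1.48e-12), and the offset lowered this to 0.71 and 1.07. Without the offset Eno1 fell the most of the 34 genes, to 126, 151 and 138 CPM in KO eTreg against 323, 369.5 and 371 CPM in KO cTreg, and to 139.9, 165 and 153 CPM in WT eTreg against 418, 369 and 412 CPM in WT cTreg. Its log2 fold change was -1.36 ± 0.08 in KO and -1.39 ± 0.08 in WT, or -0.79 and -0.85 with the offset. Pdk1 differed by -1.09 ± 0.06 in KO and -1.12 ± 0.06 in WT, and here the offset made the difference larger, -1.42 and -1.44, which put Pdk1 in the place of Eno1 as the gene that fell most. Slc2a1 differed by -0.75 ± 0.08 in KO and -1.11 ± 0.08 in WT (-0.51 and -0.87 with the offset). Slc2a3 was called in WT (-0.31, adjusted p = 0.00192) and not in KO (-0.09) without the offset, and in both with it (-0.43 in WT; -0.22, adjusted p = 0.0234 in KO).

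Ldha and 4 of the 6 pentose phosphate genes (G6pdx, Pgd, Taldo1 and Tkt) were called lower in eTreg in both genotypes without the offset. Ldha differed by -0.85 ± 0.09 in KO and -0.65 ± 0.09 in WT (-0.78 and -0.59 with the offset). Tkt had 76.6, 93.5 and 80.2 CPM in KO eTreg and 88.0, 108 and 96.1 CPM in WT eTreg, below every cTreg library of its genotype, with log2 fold changes of -0.97 ± 0.12 and -0.85 ± 0.11 (-0.72 and -0.61 with the offset). Taldo1 had 50.2, 61.0 and 53.2 CPM in KO eTreg and 62.7, 66.3 and 55.8 CPM in WT eTreg, with log2 fold changes of -0.88 ± 0.08 and -0.64 ± 0.08 (-0.52 and -0.32 with the offset). Gpi1, which converts glucose 6-phosphate to fructose 6-phosphate, differed by -0.72 in KO and -0.62 in WT (-0.51 and -0.41 with the offset), and Mpc1 by -0.75 and -0.61 (-0.99 and -0.86 with the offset). Eno3 differed by -0.50 ± 0.12 in KO, a call that ended with the offset (-0.12, adjusted p = 0.434), and by -1.13 ± 0.11 in WT (-0.78 with the offset). Pgam1 differed by -0.81 ± 0.10 in KO and -0.23 ± 0.10 in WT, where it was not called (adjusted p = 0.0603), or -0.60 and -0.03 with the offset.

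A few genes went the other way. Hk2 had 8.54, 11.2 and 9.48 CPM in KO eTreg against 6.37, 7.99 and 6.07 CPM in KO cTreg, and 7.27, 11.9 and 10.3 CPM in WT eTreg against 6.17, 5.48 and 5.76 CPM in WT cTreg. It was higher in eTreg in both genotypes without overlap (0.52 ± 0.17, adjusted p = 0.0141; 0.77 ± 0.18, adjusted p = 0.00104), and the offset left it at 0.56 and 0.82. Its call in KO was lost without KO cTreg replicate 3 (adjusted p = 0.0658) or KO eTreg replicate 2 (adjusted p = 0.0716). Ldhb rose in KO (0.37 ± 0.08, adjusted p = 0.000828) and not in WT (0.01), but with the offset it was called in both (0.65 and 0.27). Rpe was higher by 0.54 ± 0.09 in both genotypes, but -0.29 and -0.22 with the offset. Rpe shares exon sequence with the opposite-strand gene Kansl1l, which was 1.72 and 1.76 higher on the log2 scale. The differences of Hk1, Aldoa and Gapdh in both genotypes, and of Pkm in WT, also changed sign with the offset, and those of Pfkl and Pgd lost their call in both genotypes. That of Pkm in KO went from -0.58 to -0.03 and lost its call too (adjusted p = 0.736 by edgeR). Slc16a1, not called in either genotype without the offset, was called lower in both with it (-0.60 in KO and -0.43 in WT). Of the 7 isoform pairs, the log2 ratio of Ldha to Ldhb per length, computed without the offset, differed the most between the gates in KO, by -1.22, and by -0.67 in WT (exact two-sided permutation p = 0.1 for each, the smallest possible).

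**Figure D5:**
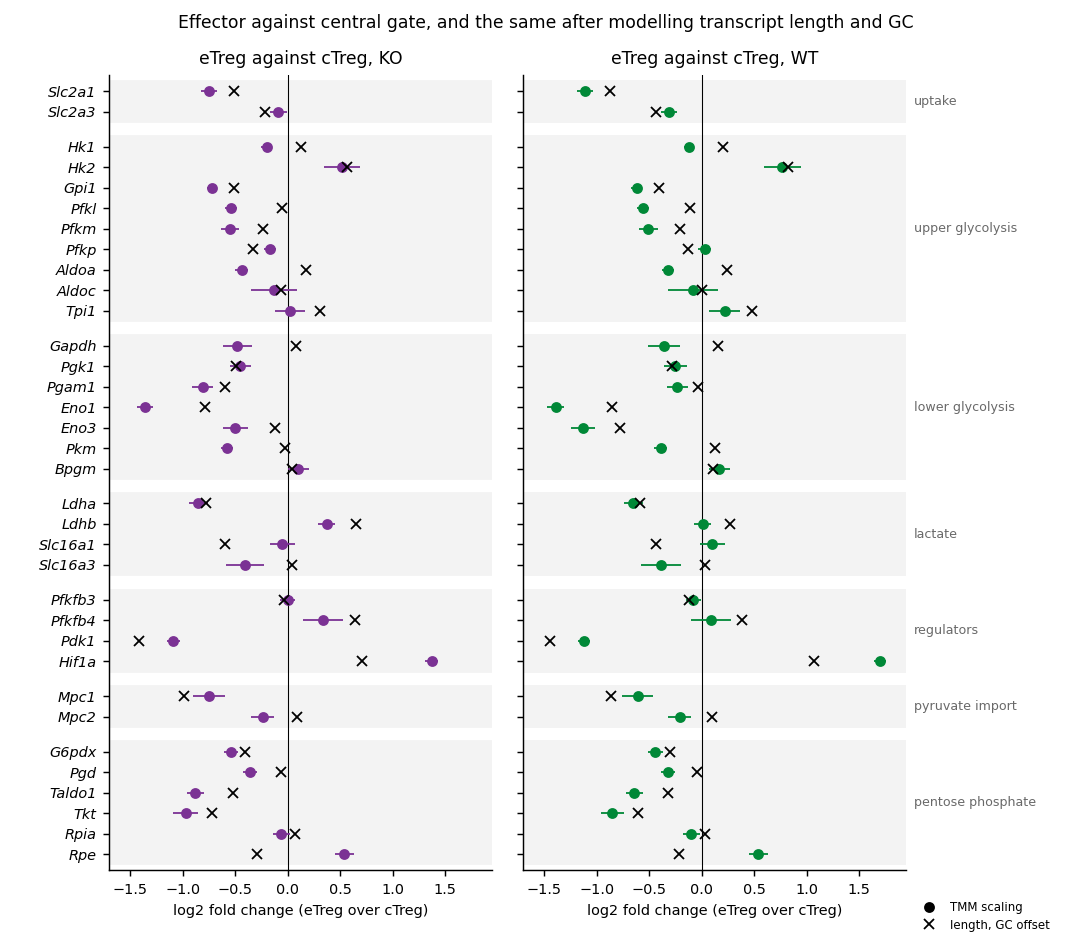
log2 fold change of eTreg over cTreg for the 34 genes in KO (left) and WT (right); circles show the fit with TMM scaling and its SE (n = 3 per group), crosses the fit with an offset for transcript length and GC content. Most circles lie left of 0 (Eno1 at -1.36 in KO and -1.39 in WT) and Hif1a lies furthest right (1.37 and 1.70). Crosses lie nearer 0 for most genes, but further left for some, among them Pdk1, Mpc1, Slc2a3 and Slc16a1 (-0.60 in KO and -0.43 in WT).

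Other genes of the pathway gave a mixed picture. Of 51 further pathway genes, 40 were tested. In KO cTreg 3 of them rose and 6 fell, 22.5% against 27.5% of all genes, and in KO eTreg 2 rose and 4 fell, 15% against 6.65% of all genes. Emb, embigin, a partner of monocarboxylate transporters, rose in both gates (0.61 ± 0.09, adjusted p = 0.000332 in cTreg; 0.43 ± 0.09, adjusted p = 0.0131 in eTreg). Adpgk, an ADP-dependent glucokinase, fell in both (-0.55 ± 0.08, adjusted p = 0.000111; -0.35 ± 0.09, adjusted p = 0.0231). Slc2a6, a further glucose transporter, rose in cTreg (0.97 ± 0.30, adjusted p = 0.0218) and Pdp1, a phosphatase that activates pyruvate dehydrogenase, fell there (-0.64 ± 0.11, adjusted p = 0.000453). In KO eTreg Pgm2l1 rose (0.45 ± 0.10, adjusted p = 0.0117) and Pgm1, phosphoglucomutase, fell (-0.35 ± 0.10, adjusted p = 0.0367). Between the gates 10 were higher and 17 lower in KO eTreg (67.5% against 72%), and 8 higher and 14 lower in WT eTreg (55% against 71.5%), with Pgls, the lactonase of the pentose phosphate branch, the lowest without the offset (-1.54 in KO and -1.72 in WT, or -0.35 and -0.65 with it). The interaction gave 0 calls in this list by edgeR, limma-voom and DESeq2, against 3.8% of all genes by edgeR. At an unadjusted p under 0.05 there were 4 genes (10% against 16.7% of all genes).

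Of 27 regulators of the pathway outside the 34 genes, 26 were tested, and 2 rose and 1 fell in KO cTreg (11.5% against 27.5% of all genes), and 1 rose and 1 fell in KO eTreg (7.69% against 6.65%). Myc, which drives glycolytic genes in activated T cells, had 58.5, 52.1 and 55.9 CPM in KO cTreg and 157, 139.6 and 177 CPM in WT cTreg (-1.51 ± 0.15, adjusted p = 4.22e-05), and 32.4, 32.4 and 34.5 CPM in KO eTreg and 51.5, 77.5 and 79.2 CPM in WT eTreg (-1.07 ± 0.15, adjusted p = 0.00287). In each gate every KO library had less Myc than every WT library. Epas1, which encodes HIF-2alpha, rose in both gates, with 17.3, 17.4 and 18.1 CPM in KO cTreg against 6.42, 6.49 and 6.07 CPM in WT cTreg, and 42.7, 62.6 and 51.6 CPM in KO eTreg against 29.1, 36.8 and 31.9 CPM in WT eTreg (1.48 ± 0.15 and 0.68 ± 0.11). Egln3, a prolyl hydroxylase that marks HIF proteins for decay, rose in KO cTreg (1.41 ± 0.21, adjusted p = 0.000214). By the interaction test of edgeR, the KO effects on Egln3 and Epas1 differed between the gates (-1.19 ± 0.26, adjusted p = 0.023 and -0.80 ± 0.19, adjusted p = 0.028). These were 2 of 26 regulators called (7.69% against 3.8% of all genes). DESeq2 called 2 in this list and limma-voom 0. Txnip, an inhibitor of glucose uptake, and Tigar, which lowers fructose 2,6-bisphosphate, were not called in either gate (0.05 and 0.01 in cTreg, 0.13 and 0.05 in eTreg).

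Known HIF targets outside the pathway formed a further list, of which 11 of 15 were tested. It leaves out genes placed among the regulators above. Egln3, also a HIF target, is one of these, and it was called higher in KO cTreg but not called in KO eTreg. In KO cTreg 0 were called by edgeR, limma-voom and DESeq2, against 27.5% of all genes by edgeR. At an unadjusted p under 0.05 there were 2 (18.2% against 37.8% of all genes), and the values ran from -0.47 to 0.63 with a median of 0. In KO eTreg 0 were called by the same 3 tools, against 6.65% of all genes by edgeR. At an unadjusted p under 0.05 there were 2 (18.2% against 19.4% of all genes), and the median was -0.03. Between the gates 5 rose and 4 fell in KO eTreg (81.8% against 72% of all genes), and 4 rose and 4 fell in WT eTreg (72.7% against 71.5%).

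The promoters of 5 genes are printed to show where ACGTG, one form of the HIF core motif, occurs and where it does not. The other form, GCGTG, was not searched or marked, and it occurs in the Pgam1, Pfkp and Eno3 windows, on either strand. Hif1a and Pfkp rose in both gates, Pgam1 and Eno3 had KO effects that differed between the gates, and Ldha holds the most ACGTG matches. They are the 250 bases before the first listed start in RefSeq, build GRCm38.p6, written 5′ to 3′ on the strand of the gene, with every ACGTG on either strand in capitals. A CACGTG, the E-box that Myc can bind, reads as ACGTG on both strands and counts for 2 matches. The genes to print were chosen after their values were seen.
Hif1a: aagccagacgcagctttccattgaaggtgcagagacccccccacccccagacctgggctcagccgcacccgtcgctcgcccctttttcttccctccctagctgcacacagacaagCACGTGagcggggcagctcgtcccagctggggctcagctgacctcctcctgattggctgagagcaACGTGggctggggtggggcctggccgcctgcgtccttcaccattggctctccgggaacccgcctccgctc
Pgam1: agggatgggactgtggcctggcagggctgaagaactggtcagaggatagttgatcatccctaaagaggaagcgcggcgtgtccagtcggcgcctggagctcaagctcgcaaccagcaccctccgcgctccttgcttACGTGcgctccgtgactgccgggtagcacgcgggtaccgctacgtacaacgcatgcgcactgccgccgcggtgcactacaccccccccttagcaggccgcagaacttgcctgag
Ldha: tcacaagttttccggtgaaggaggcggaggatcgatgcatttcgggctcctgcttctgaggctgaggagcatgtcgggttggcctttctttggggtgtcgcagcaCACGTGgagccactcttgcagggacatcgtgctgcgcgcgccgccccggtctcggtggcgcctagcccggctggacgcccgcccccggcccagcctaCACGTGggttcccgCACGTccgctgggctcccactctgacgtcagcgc
Pfkp: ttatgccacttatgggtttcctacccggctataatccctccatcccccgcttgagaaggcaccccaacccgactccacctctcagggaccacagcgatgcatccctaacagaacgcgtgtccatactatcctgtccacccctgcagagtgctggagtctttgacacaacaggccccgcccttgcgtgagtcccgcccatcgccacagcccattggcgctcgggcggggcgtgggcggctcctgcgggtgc
Eno3: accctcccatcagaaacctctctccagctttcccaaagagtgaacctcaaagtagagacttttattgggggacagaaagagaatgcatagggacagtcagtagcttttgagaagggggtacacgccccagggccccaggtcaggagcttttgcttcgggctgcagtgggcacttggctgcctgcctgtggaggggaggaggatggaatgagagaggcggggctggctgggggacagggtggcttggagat

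The windows lie at chr12:73907617-73907866 (Hif1a, plus strand), chr19:41911621-41911870 (Pgam1, plus), chr7:46845554-46845803 (Ldha, plus), chr13:6648772-6649021 (Pfkp, minus) and chr11:70656926-70657175 (Eno3, plus). Hif1a has 3 matches to ACGTG, Pgam1 1, Ldha 5, and Pfkp and Eno3 have 0 in these windows. Some genes have several listed starts, and in the counts that follow a gene holds a motif if the window of any start does. Of the 33 genes with a RefSeq promoter, 12 (36.4%) hold ACGTG, against 4998 of 27025 genes (18.5%). The background for each motif is every gene with a RefSeq promoter, not only the genes tested here, so it includes genes that failed the filter on low counts. CACGTG is in 5 of the 33 (15.2%), against 6.86% of all genes, and TTCNNNGAA, the STAT5 site, in 2 (6.06%; Pfkm and Aldoc), against 8.13%. ACGTG is in 6 of the 10 genes that rose in KO cTreg (Aldoa, Pgk1, Pgam1, Pkm, Ldha and Hif1a), in 1 of the 4 that fell and have a promoter (Slc2a1), and in 5 of the 19 not called. For Aldoa and Pkm it is before later listed starts and not before the first. A match describes the letters of the window and not a bound site.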

How the data were processed

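Total RNA of sorted Tregs was purified on Qiagen RNeasy and made into libraries with KAPA RNA HyperPrep and RiboErase, which removes ribosomal RNA, per the labels' protocols. The submitters' processing notes name HISAT2 2.2.1, mm10 and Cell Ranger, with no role for each. How reads were counted, and with what strand setting, is not given in the sources used here; copies and antisense partners of a gene may share its reads. The deposited values are raw counts per gene symbol for 24421 symbols in 12 libraries. Among them, 27 symbols read like months after a spreadsheet conversion and 2 stand on more than 1 row; all stayed in the totals and none is named.

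The counts were fitted with edgeR 4.0.16 in R 4.3.3 (filterByExpr, TMM scaling, robust quasi-likelihood F-test, two-sided) over all 12 libraries, for KO against WT in each gate, the 2 gates in each genotype, and the interaction of both. P-values were adjusted by Benjamini-Hochberg over the 12461 genes tested in each comparison, and those under 0.05 were called. Each SE is the absolute log2 fold change over the square root of F, and TMM scaling applies to all CPM. Levels per kb use the principal transcript in GENCODE vM21 (mm10), whose symbols matched 23350 rows. Copies were sought with BLAST 2.17.0 at 95% identity over 100 bases or more. Promoters are from RefSeq, GRCm38.p6, for 33 of the 34 genes. Isoform ratios were compared by exact permutation of the libraries.

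The 34 genes, the other lists and the rules were chosen with earlier results of these data known. Values in all 12 libraries are given for genes called in a KO comparison or the interaction and for the 10 largest gate differences among genes called; from the other pathway genes and regulators, up to 2 called genes in each direction per comparison, with Myc, Txnip and Tigar, were eligible, and some were left out for length.

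Same-numbered KO and WT eTreg libraries deviated together from their group means (r = 0.257, 0.341 and 0.166 over genes), each above its value with any unlike number. Their numbers were therefore taken as pairs, an inference from these same counts. In the other comparisons this did not hold for every number. No library was a duplicate of another in its group (chi-squared per degree of freedom 3.74 to 10.4). Alternatives were DESeq2 1.42.0 size factors and Wald test, limma-voom 3.58.1, scaling without Rn45s, no filter, a filter at CPM 1 or more in 3 libraries, the replicate block, only the libraries compared, a length and GC offset, and leaving out each library. The fit was also tested on simulated data.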

Additional observations from a re-analysis of the deposited data

Results flagged for a closer look

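The KO effect differed between the gates, by the interaction test of edgeR with Benjamini-Hochberg adjustment, for 3 of the 34 genes, and in each it lay nearer 0 in eTreg. For Pgam1 the log2 fold change of KO over WT was 0.03 in eTreg and 0.61 in cTreg, a difference of -0.58 ± 0.14 (adjusted p = 0.0306). For Eno3 it was -0.38 in eTreg and -1.01 in cTreg, a difference of 0.63 ± 0.17 (adjusted p = 0.0441). For Hif1a it was 0.47 in eTreg and 0.79 in cTreg, a difference of -0.32 ± 0.09 (adjusted p = 0.0498). Leaving out 1 library at a time gave -0.67 to -0.49 for Pgam1, 0.54 to 0.72 for Eno3 and -0.37 to -0.25 for Hif1a, with highest adjusted p-values of 0.0916, 0.132 and 0.142 over the alternatives.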

How the results depend on the processing

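Leaving out each library gave 9 to 15 genes called for KO against WT in cTreg (15 with all libraries), 1 to 4 in eTreg (3), 22 to 25 and 19 to 24 between the gates in KO and WT (24 and 21), and 0 to 4 for the interaction (3), which limma-voom put at 1. With the replicate block in the 6 libraries compared, 9 genes were called in cTreg (7 higher, 2 lower), where the numbers were not taken as pairs. In eTreg, where they were, the block gave 10 (6 higher, 4 lower). That pairing was inferred from these same counts. Over all genes the block raised the eTreg calls to 1712, against 829 without it. The block moved no other count of the 34 genes by over 1.5 times. Over all genes, leaving out a library gave 455 to 890 calls in eTreg. The length and GC offset gave 5 genes in eTreg, adding Pfkl (0.24) and Aldoa (0.22), and in the gate comparison it turned the sign of Hk1 (0.13 in KO, 0.20 in WT), Aldoa (0.17, 0.24), Gapdh (0.08, 0.16), Rpe (-0.29, -0.22), Pkm in WT (0.13), Slc16a1 in WT (-0.43) and Il2ra in KO (-0.35). The cause was not tested. Of the calls, 7 of 15 for KO in cTreg, 1 of 3 in eTreg, 14 of 24 and 14 of 21 between the gates in KO and WT, and 0 of 3 for the interaction held under every alternative run. Depth limits the genes with few counts (39 at the least), among which Aldoc, Pfkfb4 and Slc16a3 had the widest SEs.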
